A study of Cricetulus griseus with 40 samples.

Results

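The genes described here belong to interferon signalling and MHC class I antigen presentation: B2m, Tap1, Irf1, Irf7, Irf9, Stat2, Isg15, Adar and Cxcl10. They were taken by name from a list of 9 symbols, and all 9 were found, each on 1 line per file, among 26793 gene IDs. The RNA came from CHO-S, a suspension line derived from the ovary of a Chinese hamster and a common host for producing recombinant proteins. The cells were grown as a batch in shake flasks, and libraries were made at 72, 84, 96, 108, 120, 132, 144, 156, 168 and 180 h after seeding, 4 at each time. Time is the only factor that the labels give as differing between the groups. All cultures shared 1 cell line and 1 chemically defined medium with glutamine, an anti-clumping agent and penicillin-streptomycin, and the labels name no interferon, virus or transgene. The labels do not say which library came from which culture, so a p-value weighs a change only against how far the 4 libraries of 1 time differ, which may in part be technical.

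Interferons are secreted proteins that warn cells of virus. They bind receptors that activate the kinases Jak1 and Tyk2, which phosphorylate STAT factors, Stat2 among them. Stat2 joins Irf9 in ISGF3, the complex that binds interferon-stimulated response elements and switches on genes such as Isg15 and Irf7. Interferon gamma acts through another STAT complex on genes such as Irf1. One outcome is stronger display of peptides on MHC class I, whose light chain is B2m and whose peptides are pumped into the endoplasmic reticulum by Tap1 and its partner Tap2.

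Values are FPKM, fragments scaled to transcript length and library size. All 9 genes reached the minimum for testing, 1 FPKM in at least 4 libraries. Irf7 reached 1 FPKM in 38 libraries and the others in all 40. Library sums of FPKM lay between 463992 and 575241, and relative depth ran from 0.82 to 1.24. The absolute depth is unknown. Libraries of the same time differed along 1 shared axis that held 52.4% of the variance within times, with replicate 1 of 96 h and replicate 4 of 84 h farthest out. The axis was computed from the same values that are tested. As a covariate it therefore removes spread within times by construction, and calls gained that way are no independent support. From 84 h on, the lowest library on this axis alternated: it was replicate 4 at 84, 108, 132, 156 and 180 h and replicate 1 at 96, 120, 144 and 168 h. Of 6 lymphocyte and leukocyte markers found in the files, 4 (the pan-leukocyte gene Ptprc, Cd3e, Cd8a and Nkg7) were listed at 0 in every library, and the summed level of all 6 did not pass 0.066 FPKM. Of 6 monocyte, macrophage and dendritic cell markers, Itgax alone reached the minimum, and the summed level of the 6 was 2.24 to 4.94 FPKM at 180 h, against 0.41 to 0.52 FPKM at 72 h. The other 5 of these markers stayed at or below 0.194 FPKM in every library, and the part of these markers' RNA in the results was not tested. None of the 4 epithelial markers reached 0.11 FPKM. The 4 mesenchymal markers were split: Vim lay between 472 and 874 FPKM and Pdgfrb between 13.5 and 55.2 FPKM. Col1a1 and Col1a2 did not pass 0.029 and 0.041 FPKM in any library.

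Between 72 h and 180 h the transcripts of B2m, Irf7, Irf9, Isg15 and Stat2 rose, that of Cxcl10 fell, and Irf1, Tap1 and Adar did not pass the test. Tests used limma on log2(FPKM + 1) over all 40 libraries, with p-values adjusted over 12259 genes and a threshold of 0.05. Log2 changes on this scale understate those of low genes. Over the 10 times 6 of the 9 genes differed, against a background of 49.9% of all genes tested. At 180 h against 72 h 5 of 9 were higher, where 15.8% of all genes were higher, and 1 of 9 was lower, where 33.5% were lower (49.3% in either direction). These genes and the lists below were chosen with earlier results of these data known. A difference from the shares of all genes is therefore no independent support. The libraries of 180 h and 72 h did not overlap for 6 of the 9 genes, nor for 45.9% of all genes tested. The median log2 change of the 9 genes was 0.47 and that of all genes -0.10. Scaling the libraries by the median ratio moved the median of all genes to 0.04, and gave 2866 higher and 2853 lower calls over all genes, in place of 1938 higher and 4101 lower. With that scaling 6 of the 9 genes were higher and 1 lower, since Adar passed. In bulk RNA, fewer cells of a kind and less RNA per cell cannot be told apart.

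**Figure D1:**
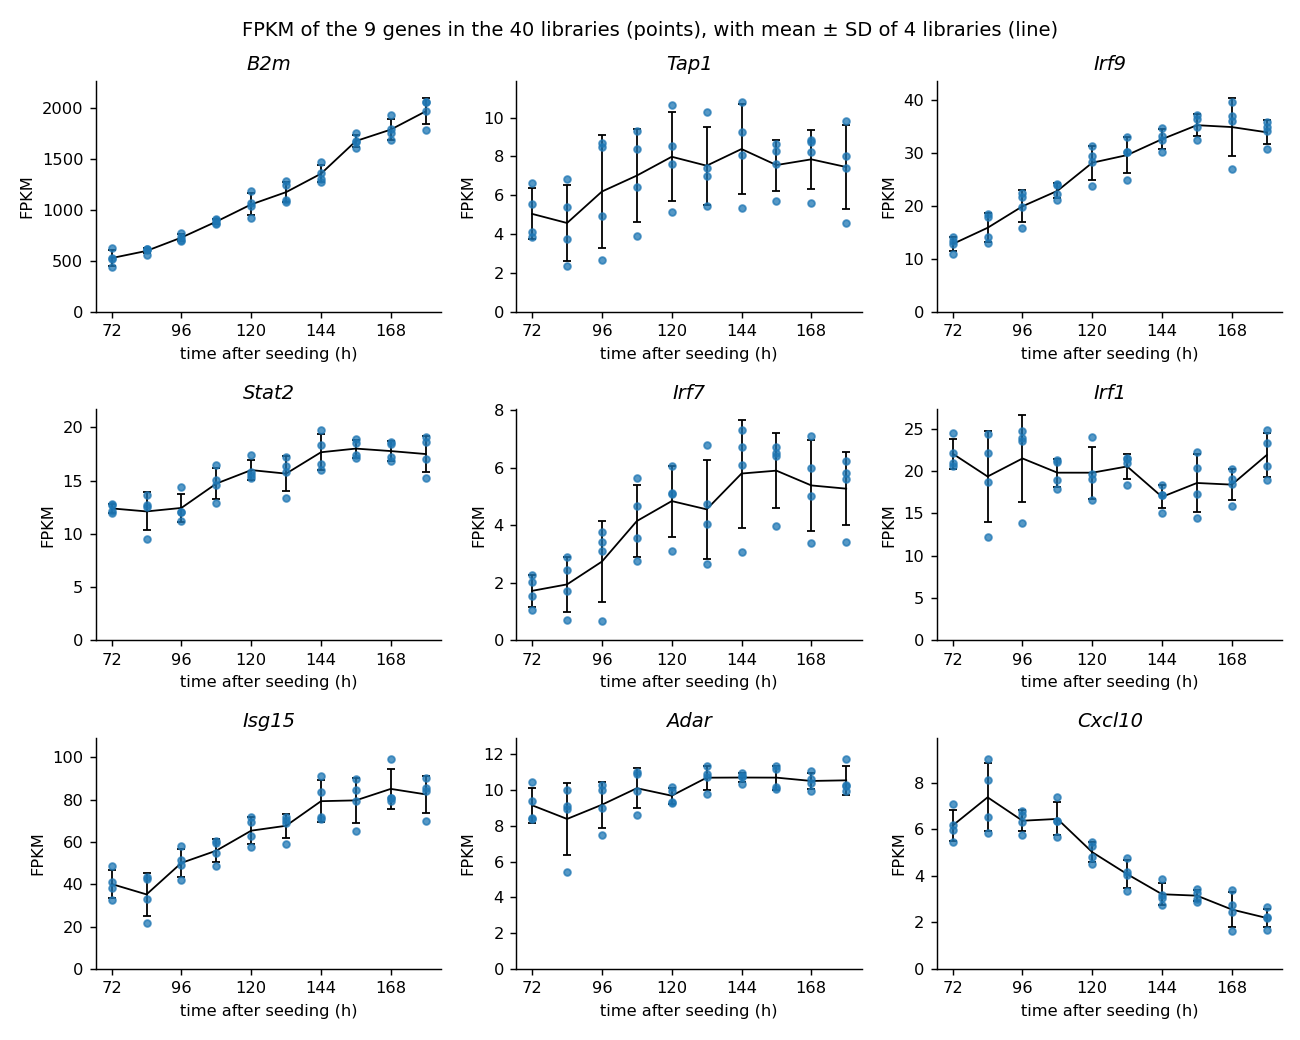
FPKM of each gene (vertical axes, each from 0) against time after seeding in hours. Points are the 40 libraries, and the line joins the means of 4 libraries with SD bars. B2m climbs at every time, Irf9, Isg15, Irf7 and Stat2 climb and level off, Cxcl10 is lower from 120 h, and Tap1 and Irf7 scatter widely within a time.

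B2m, the light chain that every MHC class I molecule needs to reach the cell surface, was the most abundant of the genes. Its 4 libraries at 180 h had 1782, 2056, 2054 and 1965 FPKM, against 529, 621, 518 and 439 FPKM at 72 h. The lowest library of 180 h was thus far above the highest of 72 h. The means were 1964 ± 129 and 527 ± 74.6 FPKM (SD, n = 4 per time), a ratio of 3.73 and a log2 change of 1.91 ± 0.08 (SE, limma adjusted p = 2.63e-19). In order of mean FPKM among the 12259 genes tested, B2m ranked 16 at 180 h and 127 at 72 h.

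The climb of B2m was steady. Its mean was 597 FPKM at 84 h, 728 at 96 h, 884 at 108 h, 1053 at 120 h, 1173 at 132 h, 1353 at 144 h, 1673 at 156 h and 1786 FPKM at 168 h. The mean was thus higher at each time than at the time before, and the order of its levels was the order of the times. From 96 h on, no library overlapped the range of 72 h. Neighbouring times did not overlap at 96, 108, 120 and 156 h, each against the time 12 h earlier, and overlapped at the other 5 steps. B2m passed the test in each window of 36 h, with log2 changes of 0.76 ± 0.08 for 108 h against 72 h (limma adjusted p = 1.97e-08), 0.61 ± 0.08 for 144 h against 108 h (1.90e-06) and 0.54 ± 0.08 for 180 h against 144 h (1.09e-04). In that last window it was the only 1 of the 9 genes that passed, where 0.473% of all genes were higher and 0.914% lower (1.39% in either direction). Its change in the last window minus that in the first was -0.22 (95% interval -0.45 to 0.01, adjusted p = 0.331).

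Tap1, which pairs with Tap2 to form the transporter that carries peptides to MHC class I, lay far below B2m in FPKM. It had 9.83, 8.02, 7.39 and 4.58 FPKM at 180 h, against 3.83, 4.13, 6.66 and 5.56 FPKM at 72 h. The groups overlapped, since replicate 4 of 180 h lay below 2 libraries of 72 h. The log2 change was 0.47 ± 0.29 (95% interval -0.11 to 1.05, limma adjusted p = 0.177), and the test over all 10 times did not pass either (adjusted p = 0.194). Mean Tap1 was lowest at 84 h (4.58 ± 1.94 FPKM) and highest at 144 h (8.38 ± 2.30 FPKM). Its coefficient of variation within a time had a median of 28.0%, against 5.99% for B2m.

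Irf9 and Stat2, which work together in ISGF3, did not change by the same amount. Irf9, its DNA-binding part, had 35.7, 34.1, 34.9 and 30.6 FPKM at 180 h, against 13.4, 12.7, 14.2 and 10.9 FPKM at 72 h. All libraries of 180 h lay above all libraries of 72 h, with means of 33.8 ± 2.24 and 12.8 ± 1.39 FPKM and a log2 change of 1.34 ± 0.12 (limma adjusted p = 1.24e-11). Stat2, the partner that carries the activation domain, had 15.3, 17.0, 18.6 and 19.1 FPKM at 180 h, against 12.7, 12.8, 12.1 and 12.0 FPKM at 72 h. Again the groups did not overlap, and the log2 change was 0.46 ± 0.09 (adjusted p = 7.94e-05).

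The ratio between these factors therefore differed between the ends of the batch. Within a library, FPKM of Irf9 over Stat2 was 1.95 ± 0.30 at 180 h and 1.03 ± 0.11 at 72 h. Its lowest library of 180 h had 1.60 and its highest of 72 h had 1.17, so the groups did not overlap. The ratio gave p = 0.0286 in an exact two-sided permutation test over the 70 splits of 4 against 4 (adjusted p = 0.0286 over 3 ratios tested), the smallest p this design allows.

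**Figure D2:**
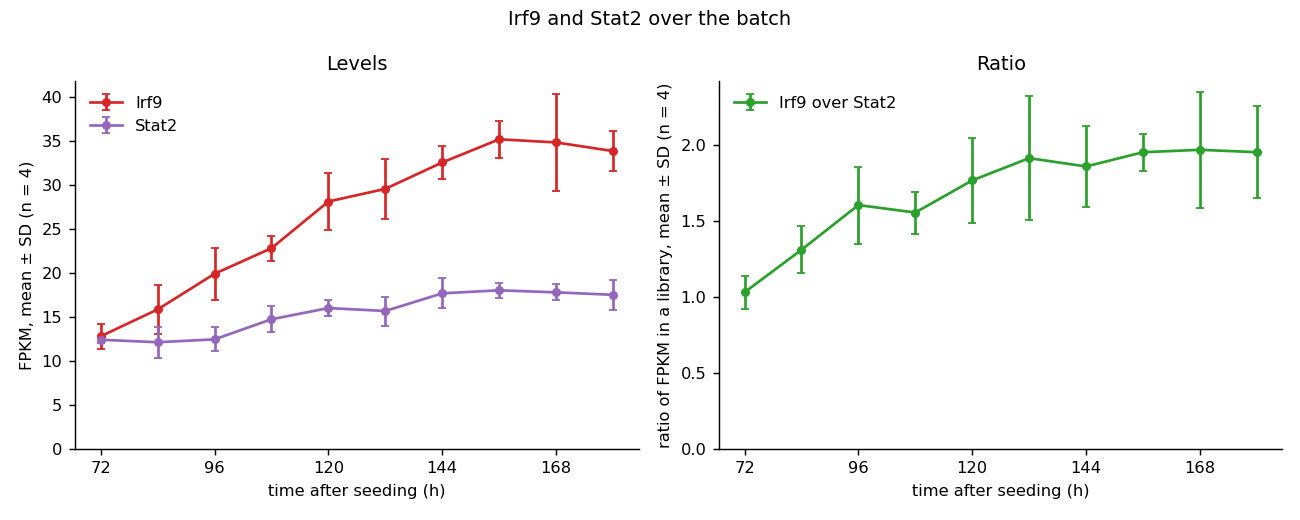
Left, FPKM of Irf9 and Stat2 against time in hours, as mean ± SD of 4 libraries. Right, the ratio of Irf9 to Stat2 taken within each library, as mean ± SD. The ratio is 1.95 at 180 h and 1.03 at 72 h.

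The rise of Irf9 belonged mainly to the earlier part of the batch. Its mean was 15.8 FPKM at 84 h, 19.9 at 96 h, 22.8 at 108 h, 28.1 at 120 h, 29.5 at 132 h, 32.5 at 144 h, 35.2 at 156 h and 34.8 FPKM at 168 h. It passed at 108 h against 72 h (log2 change 0.79 ± 0.12, limma adjusted p = 4.83e-06) and at 144 h against 108 h (0.50 ± 0.12, 0.00306), and was at 0.05 ± 0.12 for 180 h against 144 h (0.994). The change of the last window minus that of the first was -0.74 ± 0.16 (adjusted p = 0.00669). Irf9 was the only 1 of the 9 genes whose windows differed by this test, where 1.21% of all genes had a higher difference, 2.06% a lower one and 3.27% either. Array weights called 6 of the 9 genes here, and 47% of all genes.

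Stat2 showed little change up to 96 h, where it averaged 12.4 ± 1.35 FPKM. It averaged 14.7 ± 1.48 FPKM at 108 h, and from then on no library overlapped the range of 72 h. Its highest mean was 18.0 ± 0.85 FPKM at 156 h. No single window passed: the log2 change was 0.23 ± 0.09 for 108 h against 72 h (limma adjusted p = 0.0803), 0.25 ± 0.09 for 144 h against 108 h (0.0619) and -0.01 ± 0.09 for 180 h against 144 h (1). The first window of Stat2 passed under 5 of 18 alternatives: median-ratio scaling (adjusted p = 0.0395), array weights (0.00185), the shared axis as a covariate (0.0319), without the 2 libraries farthest out (0.0309) and without replicate 4 of 108 h (0.0312). The second also passed under 5 of 18, with the same first 4 settings (0.0035, 0.036, 0.0215 and 0.0219) and without replicate 3 of 108 h (0.0385).

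Irf7, which drives the second wave of type I interferon genes in infected cells, was the least abundant of the genes at 72 h. It had 6.26, 5.63, 5.82 and 3.41 FPKM at 180 h, against 1.53, 1.04, 2.27 and 2.04 FPKM at 72 h. The groups did not overlap, and the log2 change was 1.20 ± 0.30 (limma adjusted p = 0.00108), with a ratio of mean FPKM of 3.06. Its mean reached 4.15 ± 1.26 FPKM at 108 h and was highest at 156 h (5.90 ± 1.30 FPKM). The log2 change was 0.91 ± 0.30 for 108 h against 72 h (adjusted p = 0.0287), 0.38 ± 0.30 for 144 h against 108 h (0.432) and -0.09 ± 0.30 for 180 h against 144 h (0.994). The call of the first window was lost without replicate 1 or 2 of 72 h or replicate 1 or 2 of 108 h (adjusted p between 0.0648 and 0.114).

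Irf1, a factor induced by interferon gamma and by NF-kappaB, did not pass in any comparison as fitted here. With array weights all 9 genes passed over the 10 times, as did 86.4% of all genes. It had 23.4, 18.9, 20.6 and 24.8 FPKM at 180 h, against 20.9, 20.6, 22.2 and 24.6 FPKM at 72 h. The groups overlapped fully, and the log2 change was -0.01 ± 0.16 (95% interval -0.34 to 0.31, limma adjusted p = 0.952). With median-ratio scaling its value was 0.15 (adjusted p = 0.43). Time means ran from 17.0 ± 1.37 FPKM at 144 h to 22.1 ± 1.79 FPKM at 72 h, and the test over all times did not pass (adjusted p = 0.526). Its 4 libraries of 180 h lay above its 4 libraries of 144 h, with a log2 change of 0.35 ± 0.16 that did not pass (adjusted p = 0.539). Its change in the last window minus that in the first was 0.50 (95% interval 0.04 to 0.95, adjusted p = 0.253), which passed with array weights (0.40, adjusted p = 0.0316) and without the 2 libraries farthest out (adjusted p = 0.0451). The lowest libraries of Irf1 were replicate 4 of 84 h with 12.2 FPKM and replicate 1 of 96 h with 13.9 FPKM, the libraries farthest out on the shared axis.

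Isg15 encodes a ubiquitin-like protein that is attached to other proteins during an interferon response. It had 85.6, 69.8, 90.5 and 84.2 FPKM at 180 h, against 41.0, 38.2, 48.5 and 32.7 FPKM at 72 h. The groups did not overlap, with means of 82.5 ± 8.90 and 40.1 ± 6.58 FPKM, and the log2 change was 1.03 ± 0.15 (limma adjusted p = 6.66e-07). Isg15 passed at 108 h against 72 h (0.48 ± 0.15, adjusted p = 0.0218) and at 144 h against 108 h (0.49 ± 0.15, 0.0215), and was at 0.06 ± 0.15 for 180 h against 144 h (0.994). The call at 108 h was lost without replicate 2 or 4 of 72 h or replicate 1 or 4 of 108 h (adjusted p between 0.0525 and 0.0945). The call at 144 h was lost without replicate 3 of 108 h or replicate 1 or 2 of 144 h (adjusted p between 0.0638 and 0.0768).

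Adar encodes the enzyme that converts adenosine to inosine in double-stranded RNA and so keeps self RNA from setting off sensors. It had 11.7, 9.92, 10.2 and 10.3 FPKM at 180 h, against 8.36, 8.41, 10.4 and 9.37 FPKM at 72 h. The groups overlapped, since replicate 3 of 72 h lay above 3 libraries of 180 h. The log2 change was 0.19 ± 0.11 (95% interval -0.03 to 0.41, limma adjusted p = 0.152). Scaling by the median ratio put it past the threshold (0.34, adjusted p = 0.00911), as did array weights (0.22, 0.00441), the shared axis as a covariate (0.0246) and leaving out the 2 libraries farthest out (0.0252). Adar had the narrowest range of time means of the 9 genes, from 8.38 ± 2.02 FPKM at 84 h to 10.7 ± 0.27 FPKM at 144 h, a ratio of 1.28.

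Cxcl10, a chemokine that draws T cells, was the only 1 of the 9 genes that fell. It had 1.67, 2.20, 2.64 and 2.23 FPKM at 180 h, against 5.97, 7.07, 6.17 and 5.44 FPKM at 72 h. Every library of 180 h was below every library of 72 h, and the log2 change was -1.17 ± 0.13 (limma adjusted p = 2.06e-09), with a ratio of mean FPKM of 0.354. Its highest mean was at 84 h (7.37 ± 1.46 FPKM), and at 108 h it was still 6.44 ± 0.71 FPKM. The log2 change was thus 0.06 ± 0.13 for 108 h against 72 h (adjusted p = 0.798). It then fell to 3.20 ± 0.48 FPKM at 144 h, against 6.44 ± 0.71 FPKM at 108 h (-0.83 ± 0.13, adjusted p = 1.97e-05). For 180 h against 144 h the change was -0.40 ± 0.13 (adjusted p = 0.14), which passed with array weights (-0.31, 0.0248) and with the shared axis as a covariate (0.026).

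**Figure D3:**
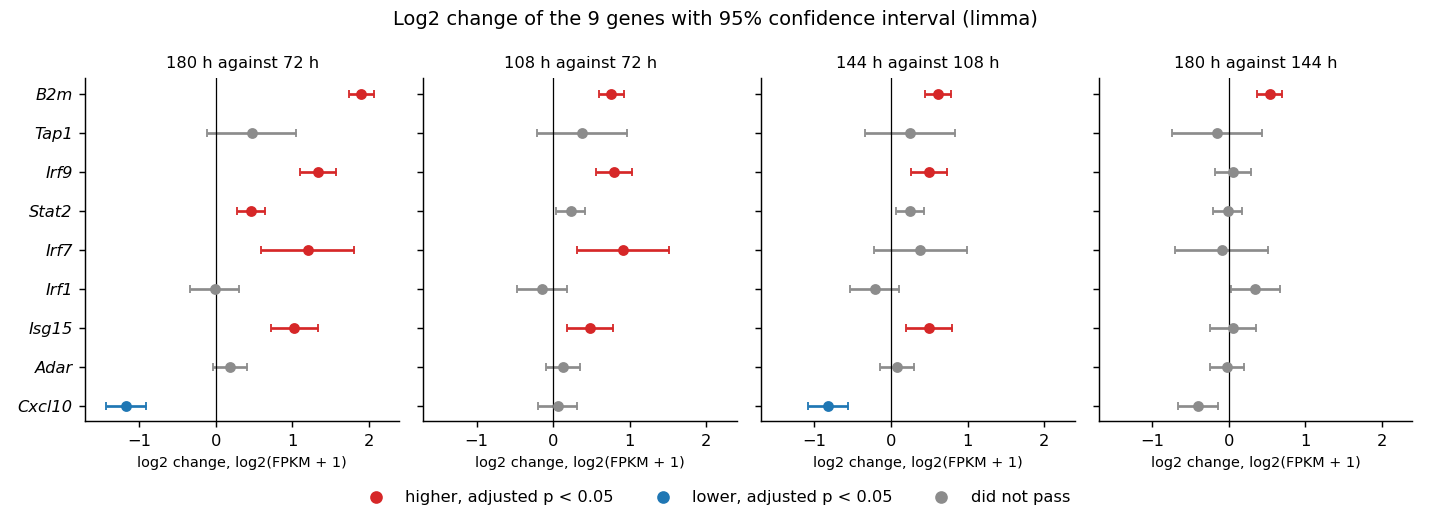
Log2 change on the log2(FPKM + 1) scale of the 9 genes (rows) for 180 h against 72 h and for the 3 windows of 36 h, with 95% confidence intervals from limma. Red and blue points passed at an adjusted p below 0.05. B2m is the gene that passed in every panel, and Cxcl10 is the only one called lower, at 180 h against 72 h and at 144 h against 108 h.

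By windows, 4 of the 9 genes were higher at 108 h against 72 h (B2m, Irf9, Irf7 and Isg15), where 7.46% of all genes were higher and 11.2% lower (18.7% in either direction). At 144 h against 108 h 3 were higher (B2m, Irf9 and Isg15) and 1 lower (Cxcl10), where 3.03% of all genes were higher and 12.7% lower (15.7% in either direction). Without replicate 2 of 72 h, or without replicate 1 of 108 h, the first count was 2. The share of all genes called in these fits was not recorded, so the drop cannot be compared with that of all genes. Over the 9 steps of 12 h limma called 0 of 81 changes of these genes, where 0.203% of all gene steps were called. Of all genes, the steps in order from 84 h against 72 h called 1.31%, 0.424%, 0.0571%, 0.0163%, 0.00816%, 0%, 0%, 0% and 0.00816%. Steps that called so few of all genes cannot show that these 9 genes stood still from one time to the next.

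Irf7 and Tap1 moved most along the shared axis within times, and the other genes moved less. Per SD of the axis score, Irf7 changed by 0.36 and Tap1 by 0.36 on the log2 scale, more than 89.9% and 89.8% of all genes tested. The others were Irf9 at 0.11, Adar at 0.10, Irf1 at 0.08, Cxcl10 at -0.03, B2m at -0.02, Isg15 at 0.01 and Stat2 at 0.002. By correlation within times, Irf9 (r = 0.78) and Adar (0.73) also followed the axis, behind Tap1 (0.97) and Irf7 (0.95). Irf1 had 0.39, B2m -0.26, Cxcl10 -0.20, Isg15 0.06 and Stat2 0.02. The axis score of the lowest libraries was -2.65 for replicate 1 of 96 h and -2.38 for replicate 4 of 84 h. In these libraries Irf7 had 0.67 and 0.72 FPKM, and Tap1 had 2.68 and 2.36 FPKM. With the axis as a covariate, the same change of Tap1 at 180 h against 72 h passed (0.47, adjusted p = 8.39e-07), as did 68.4% of all genes. The axis comes from these same values, so the covariate takes out the spread that Tap1 shares with it. The smaller p was thus in part built in. What the axis stands for was not tested.

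**Figure D4:**
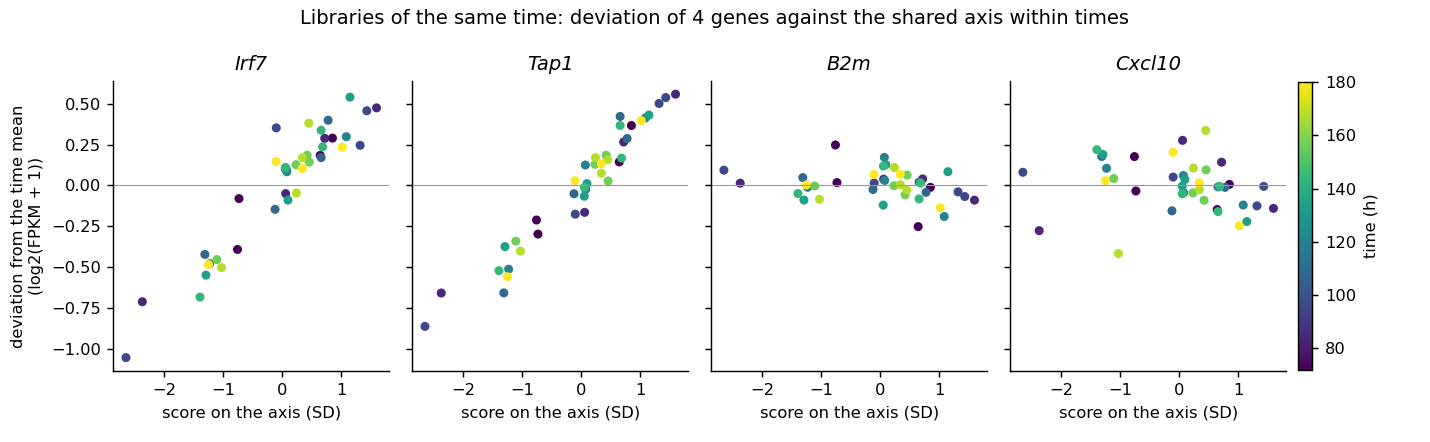
Deviation of a library from the mean of its time, on the log2(FPKM + 1) scale, against its score on the shared axis within times in SD. Each panel holds the 40 libraries, coloured by time in hours. Irf7 and Tap1 slope by 0.36 per SD, while B2m (-0.02) and Cxcl10 (-0.03) lie flat.

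Other genes of MHC class I loading and peptide supply were followed as a list of 12, all of them tested. At 180 h against 72 h, 5 of 12 were higher and 1 lower, with a median log2 change of 0.44, where 15.8% of all genes were higher and 33.5% lower. Tapbp, the tapasin that holds the empty MHC molecule next to the transporter, had 159 ± 51.7 FPKM at 180 h and 44.8 ± 8.81 FPKM at 72 h (log2 change 1.76 ± 0.35, limma adjusted p = 8.17e-05). The chaperone Calr changed by 0.72 ± 0.11 (adjusted p = 9.47e-07) and the tapasin relative Tapbpl by 0.68 ± 0.26 (adjusted p = 0.0315). Tapbpl lost its call without replicate 1 or 2 of 72 h or replicate 1 or 2 of 180 h (adjusted p between 0.0656 and 0.0998). Psme2, part of the PA28 activator of the proteasome, was the member that fell (-0.30 ± 0.09, adjusted p = 0.00385), a call lost with median-ratio scaling (-0.13, 0.153). The immunoproteasome subunits Psmb8 (0.40 ± 0.43), Psmb9 (0.16 ± 0.37) and Psmb10 (0.72 ± 0.48) and the transporter subunit Tap2 (0.54 ± 0.39) did not pass. These 4 genes and Tapbp moved by 0.43 to 0.59 per SD of the shared axis, more than at least 93.9% of all genes, and the standard errors of their changes ran from 0.35 to 0.48. In the reference gene table Tap1 stands between Psmb9 and Psmb8.

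Receptors and kinases had calls in both directions, where 15.8% of all genes were higher and 33.5% lower. Of 6 tested, 2 were higher and 2 lower. The receptor chains Ifngr1 (0.63 ± 0.06, limma adjusted p = 3.63e-11) and Ifnar1 (0.46 ± 0.05, adjusted p = 1.60e-09) rose. The kinases Jak1 (-0.77 ± 0.11, adjusted p = 2.84e-07) and Jak2 (-0.57 ± 0.15, adjusted p = 0.00168) fell, and Jak1 averaged 80.7 ± 10.3 FPKM at 180 h and 137 ± 6.82 FPKM at 72 h. Of the other STAT and IRF factors 5 of 10 found were tested. Batf2, an interferon-induced partner of AP-1 factors, rose (1.04 ± 0.21), and Irf2, an antagonist of Irf1, fell (-0.36 ± 0.07). Irf4, Irf5, Irf8 and the MHC class I activator Nlrc5 did not pass 0.12 FPKM in any library.

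Among antiviral effectors 8 of 15 tested genes were higher and 3 lower, with a median log2 change of 0.56, where 15.8% of all genes were higher and 33.5% lower. One of the 8, Ifi35, was close to the threshold (0.56 ± 0.23, limma adjusted p = 0.0451). It did not pass without the filter on low values (0.0685), nor without replicate 1 or 2 of 72 h or replicate 1, 2 or 3 of 180 h (0.0741 to 0.13). The largest rises were those of the secreted glycoprotein Lgals3bp (2.44 ± 0.37), Rtp4 (1.33 ± 0.15) and Ifi44 (1.15 ± 0.13), and each passed (limma adjusted p = 1.56e-06, 6.86e-09 and 5.94e-09). Lgals3bp averaged 358 ± 86.5 FPKM at 180 h and 65.3 ± 16.5 FPKM at 72 h. Xaf1 (-0.37 ± 0.12), Ifit2 (-0.37 ± 0.12) and the nucleotide hydrolase Samhd1 (-0.30 ± 0.08) fell, and each of these 3 calls was lost with median-ratio scaling. The call of Xaf1 was also lost without replicate 1 of 180 h (-0.29, adjusted p = 0.0649) and with the libraries of the 2 times alone (0.0559). In ISG15 conjugation and removal 2 of 3 tested genes were higher: Usp18, the protease that takes Isg15 off proteins and dampens the receptor (1.13 ± 0.10), and Uba7, the enzyme that activates Isg15 (0.67 ± 0.17). In these lists genes were counted by symbol, and 25 of 110 listed symbols were not matched.

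Several sensors of foreign nucleic acid lay below the minimum for testing. Of 12 found, 7 were tested. Of these 2 were higher and 0 lower, where 15.8% of all genes were higher and 33.5% lower. The 2 were the ubiquitin ligase Trim25 (0.63 ± 0.08) and the adaptor Mavs (0.44 ± 0.15). Mavs lost its call without replicate 1 of 72 h (limma adjusted p = 0.0563). The RNA sensor Ifih1 did not pass 0.017 FPKM in any library, the adaptor Sting1 did not pass 0.032 FPKM and the kinase Eif2ak2 did not pass 0.162 FPKM. The list named negative regulators had 2 of 5 tested genes higher and 2 lower, against the same shares of all genes. One of the 2 higher genes, Isg20 (1.54 ± 0.30), is an interferon-induced exonuclease and no inhibitor of the pathway, and the other, Socs3 (1.52 ± 0.26), blocks Jak kinases. The phosphatase Ptpn2 (-0.36 ± 0.13) and Pias1 (-0.28 ± 0.10) fell, and both calls were lost with median-ratio scaling. Ptpn2 was also lost without replicate 3 of 72 h (limma adjusted p = 0.0552) or replicate 1 of 180 h (0.0782), and Pias1 without replicate 2 of 72 h (0.0858) or replicate 1 of 180 h (0.0944).

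In the other lists, 4 of 7 NF-kappaB genes were higher and 0 lower, where 15.8% of all genes were higher and 33.5% lower. Relb (1.08 ± 0.29), Nfkbie (0.71 ± 0.16) and Nfkbia (0.69 ± 0.14) had the largest of these changes. Of interferon-inducible chemokines Cxcl16 alone was tested, and it rose (0.69 ± 0.06) while Cxcl10 fell. Cxcl9 and Cxcl11, the nearest relatives of Cxcl10, did not pass 0.48 and 0.41 FPKM in any library. Among RNA editing relatives of Adar, Adarb1 rose (0.63 ± 0.08) and the tRNA deaminases Adat2 (-0.70 ± 0.08) and Adat1 (-0.36 ± 0.08) fell. Of 3 genes of MHC class II presentation found, 0 reached the minimum for testing, and the highest library of Cd74 had 0.31 FPKM. In all lists together 28 of 64 tested genes were higher and 11 lower (median log2 change 0.38), against 15.8% and 33.5% of all genes. With median-ratio scaling the split was 35 higher and 5 lower, where 2866 of 12252 genes tested were higher and 2853 lower.

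**Figure D5:**
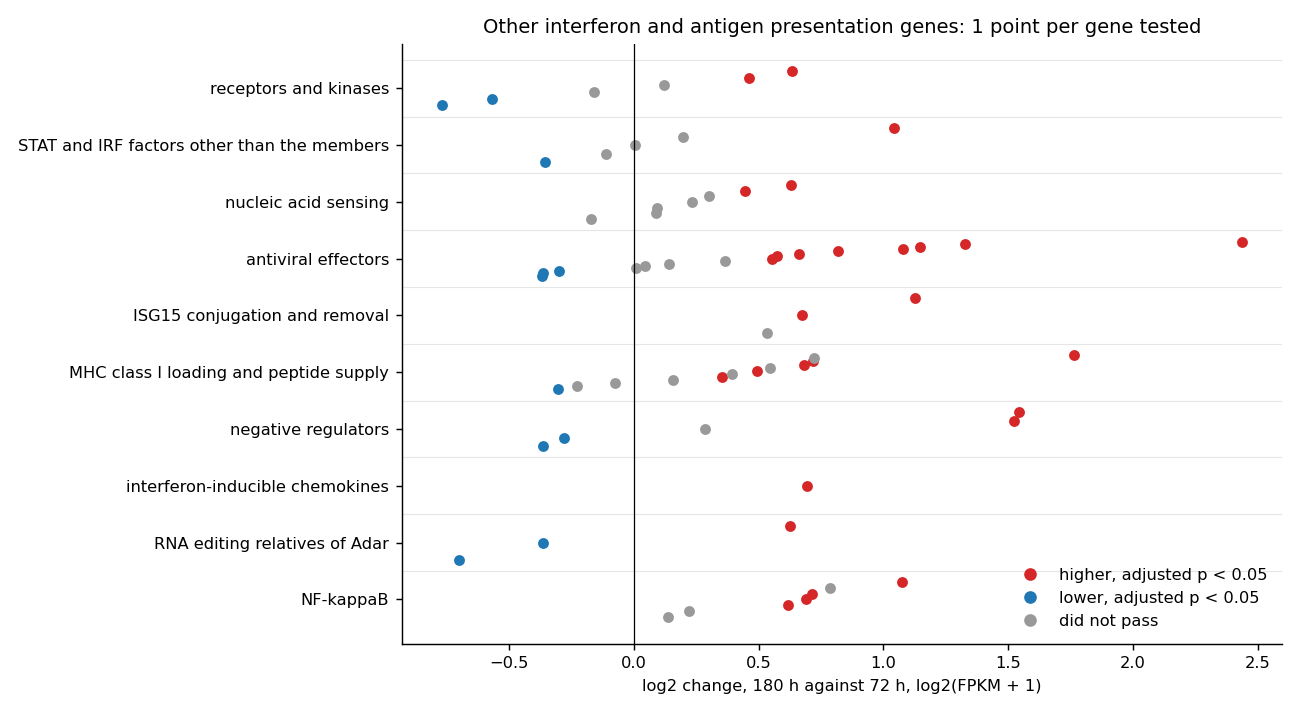
Log2 change at 180 h against 72 h on the log2(FPKM + 1) scale for the 64 tested genes of the other lists, 1 point per gene, in rows by list. Red and blue points passed at an adjusted p below 0.05 in limma. The antiviral effectors spread from -0.37 (Xaf1) to 2.44 (Lgals3bp).

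Genes whose time course looked most like each member were found by the correlation of means over the 10 times, among 9325 other genes with a symbol. The correlations rest on only 10 time means that share libraries, and are given as a description. Nearest to B2m were Creg1 (r = 0.999) and Plat, the tissue plasminogen activator (0.998). Nearest to Irf9 were the collagenase Mmp13 (r = 0.9995), with 0.866 FPKM at 180 h and 0.0892 FPKM at 72 h, and Mmp19 (0.996). Nearest to Isg15 were the adaptor Shc1 (0.998) and Nucb1 (0.997), and nearest to Irf7 were Mapkbp1 (0.995) and the cytokine Lif (0.995). Stat2 was most like Scamp5 (0.996) and Zscan20 (0.992), and Tap1 most like the GTPase Rab1b (0.997) and Rbm42 (0.997). Cxcl10 was most like the mRNA export factor Alyref (0.995) and the respiratory chain subunit Ndufv2 (0.995), both of them lower at 180 h. Adar was most like the small RNA effector Ago2 (0.982) and Znf319 (0.982). Irf1 had the weakest matches, Svil (0.89) and Ino80d (0.876).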

How the data were processed

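RNA-seq libraries (40, 4 at each of 10 times) came from a kit for stranded messenger RNA, per the labels' protocols. Each library's deposited file lists FPKM by NCBI gene ID. Per the submitters' processing notes, the tools were Cufflinks 2.2.1, SAMtools 1.0, Trimmomatic 0.32 and FastQC; the sources used here do not name the aligner, genome build, annotation or strand setting. FPKM on lines of the same ID were summed. RefSeq's gene table for CriGri-PICRH-1.0 gave symbols and neighbours, with 23196 IDs matched, and no coordinates. There Cxcl10, Isg15 and Adar overlap other genes, and shared reads could not be told apart.

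The 12259 genes that reached 1 FPKM in 4 or more libraries were log2-transformed with a pseudocount of 1 and fitted in limma 3.58.1 under R 4.3.3 (1 mean for each time, trend and robust variances, 30 residual degrees of freedom, Benjamini-Hochberg adjustment, two-sided). The script was tested on simulated data. The pseudocount, filters, scaling, a replicate block, array weights, an axis covariate, variance settings and left-out libraries were varied. The design had been written for counts or FPKM, and the FPKM branch applied. The members and lists were chosen with earlier results of these data known. All members are named; from each list, up to 3 called genes with the largest rise and up to 3 with the largest fall are named, together with genes outside this rule picked after their values were seen (the uncalled antigen processing genes and the low genes). A planned motif search in promoters was not run, since no sequences were used here.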

Additional observations from a re-analysis of the deposited data

Results flagged for a closer look

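In 90 groups of 4 libraries (9 genes at 10 times), 5 held a library far from the other 3 of its time, where chance flags about 1 in 20 groups. Replicate 1 of 96 h was lowest for Irf1 (13.9 FPKM) and for Irf7 (0.668 FPKM), and it has the lowest score on the shared axis within times. Replicate 4 of 156 h was lowest for Irf7 (3.96 FPKM), and replicate 1 of 168 h was lowest for Tap1 (5.61 FPKM). Replicate 3 of 168 h was highest for Isg15 (99.3 FPKM). For Irf9 the change of the last 36 h minus that of the first 36 h was -0.74 on the log2 scale (limma adjusted p = 0.00669), so the windows differed by a test of the difference itself.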

How the results depend on the processing

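At 180 h against 72 h, B2m, Irf7, Irf9, Isg15, Stat2 and Cxcl10 kept their direction and call under all 18 alternatives each, left-out libraries included, and 6 to 8 of the 9 genes were called. With array weights the count was 7 at 108 h against 72 h (55.4% of all genes called), 2 at 180 h against 144 h (8.4%), 12 over the 9 steps of 12 h (8.05% of all gene steps) and 6 for the last window minus the first (47%). With the shared axis as a covariate it was 7 at 144 h against 108 h (44%), 2 at 180 h against 144 h (11.3%), 10 over the steps (9.17%) and 4 for the last window minus the first (35.6%). Both settings thus called more of all genes too, 68.6% and 68.4% at 180 h against 72 h in place of 49.3%. Median-ratio scaling called 1 step (Isg15, 96 h against 84 h), where 0.307% of all gene steps were called. Without replicate 4 of 84 h and replicate 1 of 96 h together, 2 genes, Irf9 and Irf1, differed between the last and first windows (7.96% of all genes). With 1 library left out, the counts ran from 2 to 5 at 108 h against 72 h and from 0 to 3 over the steps. For these fits the share of all genes called was not recorded. The 3 steps came without replicate 1 of 96 h (B2m, Irf9 and Isg15, 96 h against 84 h). Without replicate 1 or without replicate 2 of 84 h it was 1 step, Isg15 again. Of the 39 called list genes 9 lost their call under at least 1 alternative and 0 turned. The cause of these differences was not tested.

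Values that changed sign were small and had not passed. With median-ratio scaling Irf1 at 180 h against 72 h was 0.15, and at 180 h against 144 h Stat2 was 0.025 and Adar 0.016. With array weights Cxcl10 at 108 h against 72 h was -0.019 and Stat2 at 180 h against 144 h 0.028. With 1 library left out, Irf1 at 180 h against 72 h ran from -0.074 to 0.051 and Cxcl10 at 108 h against 72 h from -0.0034 to 0.11. At 180 h against 144 h Irf7 ran from -0.32 to 0.070, Stat2 from -0.056 to 0.046, Tap1 from -0.33 to 0.032 and Adar from -0.070 to 0.0041.

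The replicate numbers did not meet the rule for pairing, since only 60 of 180 same-numbered pairs of libraries correlated over 0.1 in their deviations from the time means (median r 0.01, from -0.78 to 0.77), and 9 of 40 libraries correlated best with their own number. The numbers do carry structure: from 84 h on, the median r was 0.30 for same-numbered libraries an even number of steps apart and -0.14 for an odd number, a split made after seeing the data. The plain block does not model this alternation, whose cause was not tested. With the replicate number as a block, 6 genes differed over all times (48.9% of all genes). At 180 h against 72 h 6 genes changed, and 39 in the lists (48.7% of all genes). The block called 4 at 108 h against 72 h (18.4%) and 4 at 144 h against 108 h (15.1%). It called 1 at 180 h against 144 h (1.53%), 0 over the steps (0.248% of all gene steps) and 1 between windows (3.4%). The block thus changed none of these counts.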
